A study of Mus musculus with 9 samples.

Results

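Control embryonic mouse cortex was described from the 3 control libraries among the 9 RNA sequencing libraries of a study of *Celsr3* and *Fzd3*, with all 14670 genes of the deposited table ranked by their mean over those 3 libraries. Gene expression was measured in the cerebral cortex at embryonic day (E) 16.5 in control embryos and in *Fzd3* and *Celsr3* mutants, with 3 libraries in each group, and only the controls were described. Cortices were microdissected from embryos of the genotype labelled Control +/+, while the methods describe controls as wild-type or heterozygous littermates in a mixed C57Bl/6 and CD1 background. The labels name Trizol for RNA extraction and the methods an RNeasy kit, and neither says whether a library held 1 embryo or several, so that the spread between libraries may hold biological and technical parts that cannot be told apart. Libraries are named by the replicate numbers in their labels, which give them no order. Values are the deposited CPM, which are read counts scaled by 1 factor in each library towards a nominal total. The columns of libraries 1, 2 and 3 summed to 100.7%, 101.2% and 99.97% of that total. Since the listed genes alone exceed it in libraries 1 and 2, the factor there was not the plain number of reads. How the factors were set is not given. The value of 1 read, seen as the smallest step of each column, was 0.0193, 0.0164 and 0.0251 CPM, which gives 52266343, 61637621 and 39857305 reads on listed genes. Orders between libraries were read as deposited and again after 3 other treatments. These were equal column sums, median-of-ratios scaling and a correction for GC content. In the GC correction, the median log2 deviation in each of 20 bins of GC content was taken off each library. Genes with no GC value stayed as deposited. The median-of-ratios factors were 0.9999, 1.0002 and 1.0008 in libraries 1, 2 and 3, so this scaling left the deposited values almost unchanged. It adds little as a separate check. Highest and lowest members of a list are named by CPM unless said otherwise, while levels were compared between genes per kb of exon.

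In late embryonic cortex, radial glia line the ventricle and divide, intermediate progenitors in the adjoining zone divide to give neurons, and young excitatory neurons settle in layers, the deep layers before the upper ones. These neurons grow axons and dendrites, which needs large amounts of tubulin and of proteins that bind microtubules. Inhibitory interneurons arrive by migration from ventral forebrain, most astrocytes and oligodendrocytes form later, and vessels, microglia and blood are present throughout.

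The most abundant mRNAs were those of tubulins, translation factors and the mitochondrial genome. *Tuba1a*, the main α-tubulin of young neurons, ranked first in each of the 3 libraries, with 9747, 10216 and 11459.6 CPM in libraries 1, 2 and 3. Its gene lies at chr15:98949837-98953703 in GRCm38 on the minus strand. Of the distinct 50-base stretches of its transcripts, 72.9% also occur in another annotated gene. Its value, like those of *Tuba1b* (66.7%) and *Tuba1c* (52.7%), is therefore uncertain. *Tuba1a* and *Tuba1b* overlap the model *Gm49450*, so part of their sharing may be with that model. The mitochondrial genes *mt-Co1*, *mt-Co2* and *mt-Nd4l* also share most of their 50-base stretches with other annotated genes. *Eef1a1*, which brings aminoacyl-tRNA to the ribosome, followed with 8459, 8004 and 8726 CPM. Both stood far above the median gene in every library, the medians of all listed genes being 24.3, 24.4 and 24.5 CPM. The 25 genes with the highest means were, in order, *Tuba1a*, *Eef1a1*, *mt-Atp8*, *mt-Co1*, *Tubb2b*, *Tuba1b*, *Tubb5*, *Eif4g2*, *Eef2*, *Dpysl3*, *mt-Co2*, *mt-Nd4l*, *Actg1*, *Hspa8*, *mt-Cytb*, *Gm26924*, *Stmn1*, *Hsp90ab1*, *Tuba1c*, *Hnrnpa1*, *Actb*, *Map1b*, *Ptma*, *Dcx* and *Tmsb4x*. Of these, *Tubb2b* and *Tubb5* encode β-tubulins, *Dpysl3*, *Stmn1*, *Map1b* and *Dcx* encode proteins that bind tubulin or microtubules, and *Eif4g2* and *Eef2* act in translation. Their means ran from 10474 down to 1834 CPM, and 24 of the 25 had a coefficient of variation (CV, the s.d. over the mean of the 3 libraries) below 10%. The exception, *Gm26924*, is described with the variable genes.

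Expression was spread over many genes. The top gene held 1.04% of the summed CPM, the top 10 held 4.90%, the top 25 held 8.20% and the top 100 held 16.6%, with 16.5%, 16.6% and 16.6% for the top 100 of libraries 1, 2 and 3. It took 1117 genes to reach 50% of the sum and 6036 to reach 90%. The mean was at least 1000 CPM for 64 genes, at least 100 CPM for 2535, at least 5 CPM for 11508 and at least 1 CPM for 14272, and the lowest mean was 0.0128 CPM. Of all listed genes, 14665 exceeded 1 CPM in at least 3 of the 9 libraries, so that genes absent from the table are only known not to be listed. Protein-coding genes made up 12639 of the listed genes and 94.7% of the summed CPM, and the 620 processed pseudogenes held 1.78%.

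**Figure D1:**
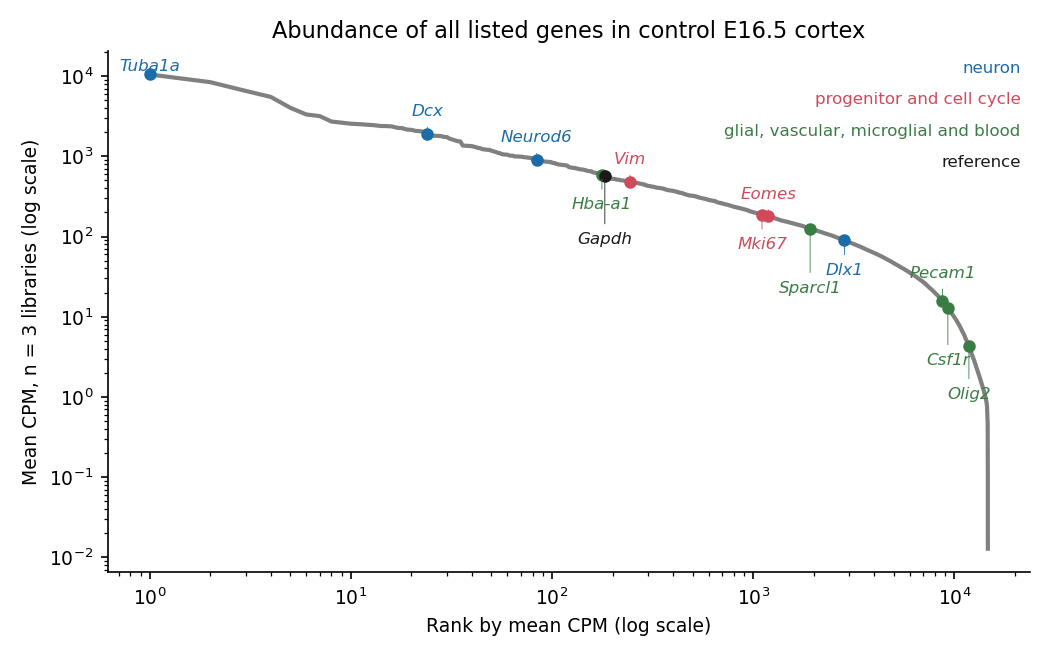
Mean CPM over the 3 control libraries against rank for all 14670 listed genes, both axes logarithmic, with marker genes as points coloured by cell type. The neuronal genes *Tuba1a*, *Dcx* and *Neurod6* sit at the upper left, the progenitor genes *Vim*, *Eomes* and *Mki67* between 100 and 500 CPM, and *Pecam1*, *Csf1r* and *Olig2* at the lower right.

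Since CPM grows with transcript length, genes were also ordered by CPM per kb of annotated exon. This order covered the 14330 genes with a matched model of at least 300 exon bases. Exon length was that of the merged exons of all annotated transcripts of a gene, which can exceed the length of its mRNA. Levels per kb of genes with many transcripts may therefore be too low, here and in the lists below. *Tuba1a* led again with 5809 CPM per kb, followed by *mt-Co2* with 3679, *mt-Co1* with 3557, *Eef1a1* with 3368, *mt-Cytb* with 2081, *Tuba1b* with 1772 and *Tubb2b* with 1755 CPM per kb. The next 3 were *Gm11223*, a pseudogene that shares 87.5% of its 50-base stretches with other genes, *Gm13727*, whose locus overlaps *Cwc22*, and *mt-Nd1*. With shorter models admitted, *mt-Atp8* came first, but its row may also hold reads of the overlapping *mt-Atp6*, and *mt-Nd4l*, *Gm24574* and *Gm22396*, which also entered the first 10, overlap *mt-Nd4*, *Hnrnpa3* and *Agfg1*. Levels per kb of such short models are uncertain. *Map1b* and *Dcx*, with long mRNAs, held 130.1 and 152 CPM per kb against a median of 5.93 CPM per kb over all genes, and 13 of the 25 genes that led by CPM were also among the first 25 per kb. The top 100 genes per kb held 27.6% of the summed CPM per kb.

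The labelled tissue was checked by its markers, and neuronal genes were high in all 3 libraries. Of 14 general neuronal markers, 13 were listed, without *Tubb3*, and their sum was 7128, 6959.7 and 7126 CPM in libraries 1, 2 and 3. *Dcx*, a microtubule protein of migrating neurons, was read at 1937, 1972 and 1842 CPM, and *Map2*, a dendritic microtubule protein, at 1565, 1569 and 1467 CPM. The growth cone gene *Gap43* varied most within the list, with 224, 193 and 264 CPM, and the neurofilament gene *Nefl* was its lowest member with 30.7, 28.3 and 35.1 CPM. All 13 stood above the all-gene median on both scales, with a list median of 76.2 CPM per kb. The order of the libraries in this sum was not stable, since library 1 led as deposited and library 3 with equal column sums or after GC correction. Sums for the 8 genes of cortical excitatory neurons were close, at 2375, 2343 and 2368 CPM, where library 3 also led with equal column sums but library 1 after GC correction. *Neurod6*, a transcription factor of these neurons, led them with 929, 908 and 872 CPM and 420.1 CPM per kb, *Neurod2* had 345, 365 and 329 CPM, and *Emx1*, a dorsal forebrain factor, was the lowest with 33.5, 38.4 and 28.02 CPM. The vesicular glutamate transporters *Slc17a7* and *Slc17a6* had 11.2 and 9.36 CPM per kb.

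Layer markers were all listed. The 8 genes of deep layer neurons summed to 1366, 1452 and 1206 CPM and the 9 of upper layer neurons to 1888, 1963 and 1783 CPM, with medians of 27.7 and 12.9 CPM per kb. Both sums were highest in library 2 and lowest in library 3, under each treatment tried. *Tbr1*, a deep layer factor, had 344, 349 and 323 CPM, *Bcl11b* had 252, 266 and 230.3 CPM and *Sox5*, the highest of the list, had 369, 406 and 288 CPM. *Cux1*, an upper layer factor, had 251, 259 and 232 CPM. Each of these 4 was highest in library 2 and lowest in library 3. As deposited, 5 of the 8 deep layer and 6 of the 9 upper layer genes were highest in library 2, against 34.1% of all genes. Lowest in library 3 were 7 of each list, against 36.7%. Highest in library 1 were 2 deep and 3 upper layer genes, *Etv1* was highest in library 3, and *Mef2c* was lowest in library 2. On the per kb scale *Tbr1* (61.7 CPM per kb) was the highest member of the deep layer list, while *Etv1* (1.94) and *Rorb* (3.76 CPM per kb) were the lowest of the deep and upper layer lists. *Pou3f1* varied most among the upper layer genes, with 33.7, 39.1 and 30.7 CPM. Of the 10 genes for Cajal-Retzius and subplate neurons, 9 were listed, without *Cplx3*. *Reln*, the secreted guidance protein of the marginal zone, made up most of their sum with 465, 504 and 472 CPM. *Trp73* had 13.4, 14.7 and 15.05 CPM. Per kb, *Reln* held 20.2 CPM against 2.600 CPM for *Trp73*, which was also the list median. *Nxph4* varied most in this list, with 9.98, 13.4 and 9.08 CPM, and *Lhx1* was the lowest with 1.796 CPM on average.

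The 14 interneuron genes were all listed and summed to 419.8, 423 and 461 CPM. *Dlx1*, a factor of ventrally born neurons, was the highest by CPM with 85.9, 84.4 and 98.1, the GABA synthesis genes *Gad1* and *Gad2* had 34.4, 29.9 and 42.3 CPM and 28.03, 29.5 and 30.5 CPM, and *Dlx6* was the lowest with 1.08, 0.838 and 1.505 CPM. *Sst*, the somatostatin gene, varied most, with 15.7, 12.4 and 23.6 CPM. It was highest in library 3 and lowest in library 2, as was *Gad1*. Of the 12 interneuron genes of at least 5 CPM, 7 were highest in library 3, against 34.7% of all 11508 genes of at least 5 CPM, under each treatment tried. Lowest in library 1 were 6 of them, against 29.9%, or 5 after GC correction, and lowest in library 2 were 5, against 33.3%, or 6 with equal column sums. *Erbb4*, *Lhx6*, *Npy* and *Dlx2* were highest in library 2, against 34.1% of all genes. The median of the list, 4.82 CPM per kb, lay below that of all genes, far under the 37.6 CPM per kb of the excitatory list. In bulk tissue fewer cells of a type and less RNA per cell cannot be told apart, here or in any list.

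By list medians per kb, progenitor genes lay between general neuronal genes and glial genes. All 15 radial glial genes were listed, with sums of 1904, 2041 and 1949.6 CPM. *Vim*, an intermediate filament, had 482, 502 and 465 CPM and *Fabp7*, a lipid-binding protein of radial glia, had 447, 435 and 506 CPM, with 370.3 CPM per kb for *Fabp7* against 102 for *Vim*. The progenitor factors *Pax6* and *Sox2* had 76.8, 82.3 and 71.6 CPM and 47.8, 50.2 and 41.2 CPM, and *Hopx*, a gene of outer radial glia in larger brains, was the lowest with 5.41, 5.27 and 4.16 CPM. *Eomes*, the factor that marks intermediate progenitors, led its list with 181, 192 and 161 CPM, ahead of *Neurog2* with 82.7, 87.3 and 74.9 CPM, and *Neurog1* was the lowest with 2.601, 3.45 and 1.76 CPM. *Eomes*, *Neurog2*, *Pax6* and *Sox2* were all highest in library 2 and lowest in library 3. As deposited, 12 of the 14 radial glial genes of at least 5 CPM were highest in library 2, against 34.1% of all genes. Lowest in library 3 were 9 of them, against 36.7%. For intermediate progenitors these counts were 5 and 6 of 7. *Fabp7*, *Tnc* and *Sstr2* were highest in library 3, and *Neurod4* in library 1. Of 9 intermediate progenitor genes 8 were listed, without *Neurod1*, and they summed to 462, 489 and 416 CPM. All 13 cell cycle genes were listed, from *Top2a* with 308, 320.5 and 262 CPM and *Mki67* with 177, 215 and 168 CPM down to *Aurkb* with 22.9, 25.4 and 20.9 CPM. The medians were 9.04 CPM per kb for radial glia, 19.2 for intermediate progenitors and 16.7 for the cell cycle. The 18 listed genes of replication histones, whose mRNAs mostly lack a poly(A) tail, summed to only 77.6, 90.9 and 86.3 CPM, of which *Hist3h2ba* gave 40.7 CPM, while *Hist1h4i* had 0.528 CPM and *Hist1h2bk*, uncertain since it shares 74.2% of its 50-base stretches with other genes, the largest CV, 57.7%.

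Oligodendrocyte genes were low, and astrocyte genes nearer the median of all genes per kb. The astrocyte markers *Gfap*, *Aqp4* and *S100b* were not listed, and the other 7 summed to 366, 374 and 405 CPM. *Sparcl1* led with 132, 99.6 and 145 CPM, *Slc1a2*, a glutamate transporter, varied most with 33.4, 28.4 and 42.8 CPM, and *Gja1* was the lowest with 10.7, 10.5 and 10.5 CPM. Both *Sparcl1* and *Slc1a2* were highest in library 3 and lowest in library 2. Of the 7, 4 were highest in library 3, or 5 after GC correction, against 34.7% of all genes, while 3 were lowest in library 1, against 29.9%, and 3 in library 2, against 33.3%. *Aldoc*, a glycolytic enzyme, and the growth factor receptor *Fgfr3* were highest in library 2, with 95.99, 126 and 107 CPM and 52.8, 66.2 and 47.8 CPM. Of 10 genes of the oligodendrocyte lineage 9 were listed, without *Mag*, and they summed to 83.9, 79.9 and 94.1 CPM, led by *Cnp* with 30.4, 29.02 and 31.2 CPM. The lineage factors *Olig1* and *Olig2* had 4.47, 4.55 and 6.85 CPM and 3.66, 3.88 and 5.34 CPM, and *Sox10* was at 0.944, 1.35 and 1.45 CPM. *Gpr17* varied most, with 2.97, 2.003 and 3.44 CPM. *Olig1*, *Olig2* and *Sox10* were highest in library 3, with 5 of the 6 oligodendrocyte genes of at least 5 CPM highest there, and 4 after GC correction, against 34.7% of all genes. Medians per kb were 7.77 CPM for astrocytes and 1.52 CPM for oligodendrocytes.

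**Figure D2:**
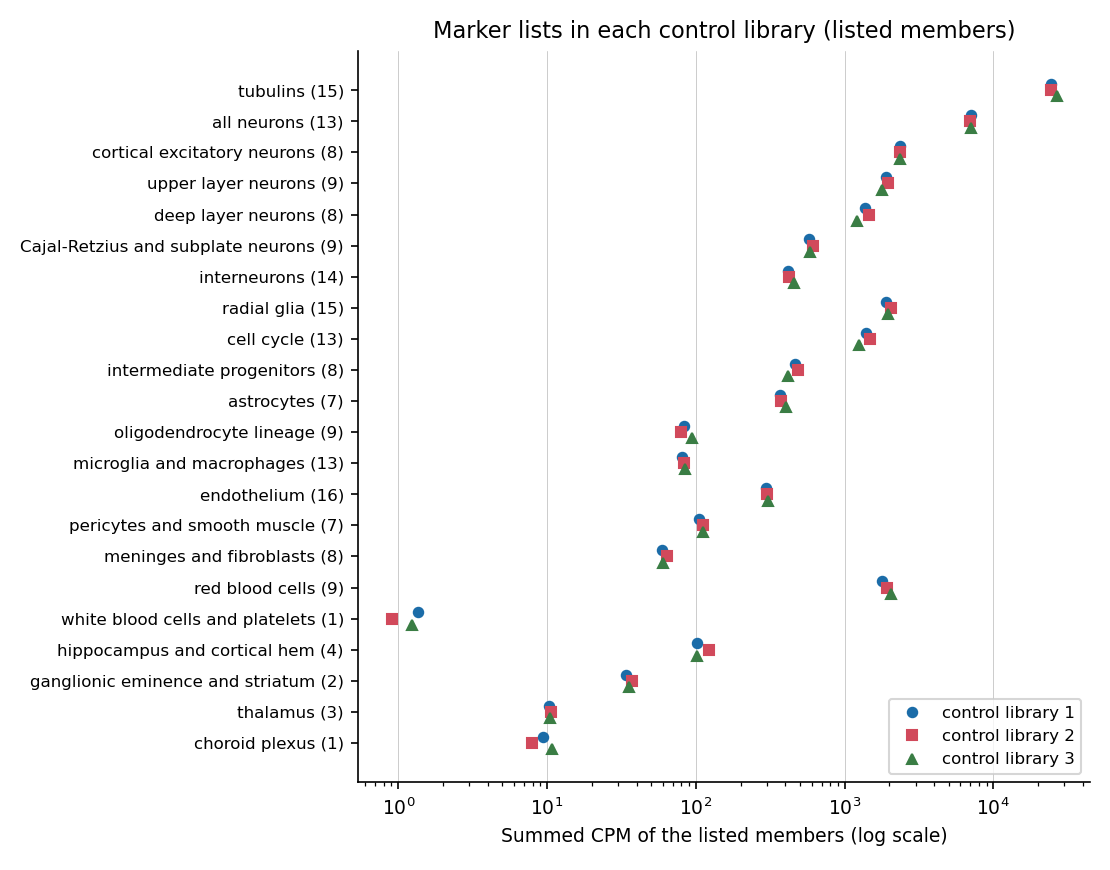
Summed CPM of the listed members of 22 marker lists in control libraries 1 to 3, on a logarithmic axis, with the number of listed members in brackets. Tubulins and general neuronal genes are highest, red blood cell genes lie between 1773 and 2049 CPM, and the lists of choroid plexus, thalamus and white blood cells are represented by 1, 3 and 1 listed genes near or below 10 CPM.

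Microglial and vascular genes were low per kb, and their sums differed little between libraries. Of 15 microglial and macrophage genes 13 were listed, without *Tmem119* and *Ptprc*, and their sums were 81.1, 83.3 and 84.1 CPM. *Csf1r*, the receptor that microglia need to survive, had 11.6, 13.6 and 13.6 CPM and *Cx3cr1* 7.302, 9.46 and 8.202 CPM, with *Trem2* lowest at 1.02, 1.43 and 1.05 CPM. *C1qc*, a complement gene, varied most, with 1.56, 2.68 and 2.36 CPM. The 16 listed endothelial genes, without *Eng*, summed to 297, 300.3 and 306 CPM, a CV of 1.45%. *Slc2a1*, the glucose transporter of the blood-brain barrier, led with 47.3, 48.2 and 46.9 CPM, *Pecam1* had 14.3, 17.1 and 16.2 CPM, *Cdh5* had 14.6, 14.1 and 15.4 CPM and *Ly6c1*, at 1.31, 0.361 and 0.702 CPM, was the lowest and the most variable. Pericyte and smooth muscle genes were listed for 7 of 11, with *Acta2*, *Tagln*, *Myh11* and *Des* not listed, and summed to 105, 113 and 112 CPM. Library 2 led this sum as deposited and library 3 with equal column sums or after GC correction. *Rgs5* had 34.2, 30.5 and 30.4 CPM, *Pdgfrb* 15.6, 17.5 and 16.6 CPM and *Anpep* 1.19, 1.94 and 2.18 CPM. Medians of the microglial, endothelial and pericyte lists were 2.09, 3.04 and 3.02 CPM per kb, all below the all-gene median.

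Red blood cell genes stood out among the markers of other tissues. The adult globin genes were high, with 546, 587 and 634 CPM for *Hba-a1*, 436, 455 and 474 CPM for *Hba-a2*, 428, 485 and 511 CPM for *Hbb-bs* and 344, 377 and 406 CPM for *Hbb-bt*. They share 72.3%, 89.3%, 53.2% and 58.3% of their 50-base stretches with another gene, so that the split within each pair is uncertain. Each was lowest in library 1 and highest in library 3. *Alas2*, the erythroid enzyme of haem synthesis, had 10.8, 11.3 and 12.7 CPM, which is 4.82 CPM per kb against 725 for *Hba-a1*, and the embryonic globin *Hbb-y* had 0.983, 1.94 and 0.627 CPM. All 6 red blood cell genes of at least 5 CPM were lowest in library 1, against 29.9% of all genes, and highest in library 3, against 34.7%, with the same counts under each treatment tried. The 9 listed members, of 15, summed to 1773, 1927 and 2049 CPM, or 0.1904% of all CPM. Of 8 genes of white blood cells and platelets only *Itga2b* was listed, at 1.35, 0.903 and 1.23 CPM.

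The 4 globin genes that carry this signal share a short stretch before their start sites. The 60 bases before the start of each, from RefSeq (GRCm38.p6), are shown with the TATA-like motif ATATAA in capitals, read 5′ to 3′ at chr11:32283612-32283671 and chr11:32296432-32296491 on the plus strand and chr7:103827929-103827988 and chr7:103813924-103813983 on the minus strand.
Hba-a1: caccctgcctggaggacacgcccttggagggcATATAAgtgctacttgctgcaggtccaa
Hba-a2: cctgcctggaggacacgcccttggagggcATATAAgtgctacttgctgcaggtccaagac
Hbb-bs: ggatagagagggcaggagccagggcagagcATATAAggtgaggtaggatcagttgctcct
Hbb-bt: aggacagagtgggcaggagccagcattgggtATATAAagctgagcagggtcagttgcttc
The motif began 28, 31, 30 and 29 bases before the start. Searched on both strands, it occurred in 858 of 32851 such 60-base windows (2.61%), in 125 of the 9873 listed genes with a window (1.27%), and in 4 of the 6 red blood cell genes with one, these 4 globins. The motif was chosen after the globin windows were seen, and a match is a description, not a shown binding site.

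Genes of neighbouring tissues were listed in part, and few were listed for choroid plexus or for the ganglionic eminence and striatum. The meningeal and fibroblast list had 8 of 12 members listed, with sums of 59.3 CPM in library 1 and 64.2 CPM in library 2, library 3 lying between them, and a median of 0.3298 CPM per kb, led by *Igf2* with 24.7, 24.96 and 25.6 CPM, which overlaps the model *Gm49394* and is uncertain. *Col1a1*, a fibrillar collagen, had 1.21, 5.35 and 0.778 CPM and *Col1a2* had 2.004, 3.78 and 3.54 CPM, *Col1a1* being high in library 2 only, and *Ogn* was the lowest with 0.513 CPM on average. Of 11 genes of the ganglionic eminence and striatum only *Ppp1r1b*, with 31.8, 34.6 and 31.3 CPM, and *Ebf1*, with 1.95, 2.45 and 4.31 CPM, were listed. For choroid plexus only *Enpp2* was, with 9.33, 7.92 and 10.8 CPM, and *Ttr* was not. Of 4 thalamic genes 3 were listed, *Tcf7l2*, *Rora* and *Lhx9*, with a sum of 10.3, 10.6 and 10.4 CPM. Hippocampal and cortical hem genes were listed for 4 of 7, and *Zbtb20* gave 89.98, 109.7 and 90.1 CPM of their sum while *Prox1* had 5.896, 6.01 and 5.97 CPM, *Lef1* 5.53, 6.29 and 4.21 CPM and *Wnt2b* 1.06, 0.8704 and 0.878 CPM.

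Housekeeping and stress genes gave the scale for these levels. The 24 mitochondrially encoded genes summed to 24239.7, 23552 and 23532 CPM, 2.36% of all CPM, and the 81 cytosolic ribosomal protein genes to 36516, 35694 and 35949.6 CPM, 3.58%. For the mitochondrial sum library 1 led as deposited, by median-of-ratios scaling and with equal column sums, but library 3 after GC correction. The tRNA gene *mt-Tc* was its lowest member with 0.995 CPM. *Rpl4* was the most abundant ribosomal protein gene by CPM, with 1215, 1178 and 1215, *Rps12l2* was the least abundant with 0.915 CPM, and *Rpl35a* had the largest CV among them, with 259, 239 and 182 CPM. Among 13 reference genes, all listed and summing to 7809.8, 7309 and 7946 CPM, *Actb* had 2009, 2136 and 2072 CPM and *Gapdh* 561, 569.5 and 584 CPM, with CVs of 3.07% and 2.05%. *Gusb* was the lowest of them with 6.302 CPM. Of 12 immediate early genes 7 were listed, without *Fos*, *Fosb*, *Egr2*, *Npas4* and *Atf3*, and they summed to 76.2, 82.3 and 73.9 CPM, of which *Jun* gave 43.4, 45.2 and 39.7 CPM and *Junb* 0.963, 0.903 and 1.33 CPM. The hypoxia and glycolysis list, 11 of 12 listed, summed to 959.7, 897 and 935 CPM, with 283, 259 and 295 CPM for *Pgk1*, 48.4, 36.7 and 41.4 CPM for *Vegfa* and 43.6, 38.4 and 39.6 CPM for *Bnip3*. Its lowest member was *Adm* with 0.856 CPM and its most variable *Ankrd37* with a CV of 15.8%. *Vegfa* was highest in library 1, as were 6 of the 9 genes of this list of at least 5 CPM, against 31.1% of all genes, under each treatment tried. *Pgk1* shares 53.9% of its 50-base stretches with another gene and is uncertain. The inducible chaperones *Hspa1a* and *Hspa1b*, near-identical copies and so uncertain, were at 1.79, 1.72 and 2.11 CPM and 2.16, 1.54 and 2.38 CPM, and the endoplasmic reticulum chaperone *Hspa5* at 262, 249 and 259.5 CPM, in a list of stress genes that summed to 597, 578 and 602 CPM and had *Chac1* lowest with 0.828 CPM.

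The planar polarity list, which holds the genes deleted in the mutants, was described in the controls alone. All 12 members were listed, with sums of 1033, 1281 and 1045 CPM. *Celsr3*, an atypical cadherin of postmitotic neurons, had 196, 243 and 214 CPM, *Celsr2* 204, 275 and 203 CPM and *Celsr1* 137, 193 and 141 CPM. *Fzd3*, a frizzled receptor, had 57.95, 67.7 and 46.9 CPM, its relative *Fzd6* 5.95, 5.81 and 6.67 CPM, and *Vangl2* 161, 205 and 142 CPM against 1.46, 1.61 and 1.83 CPM for *Vangl1*. Library 2 was the highest for *Celsr1*, *Celsr2*, *Celsr3*, *Fzd3* and *Vangl2*. Of the 11 members of at least 5 CPM, 8 were highest there, against 34.1% of all genes, and 7 after GC correction, while 5 were lowest in library 1, against 29.9%, which became 6 with equal column sums, against 30.2%, and 2 after GC correction, against 28.0%. *Prickle1* varied most, with 22.1, 34.2 and 31.7 CPM. Per kb, *Vangl2* led with 24.3 and *Celsr2* followed with 19.7 CPM per kb.

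The 3 libraries were close. Over the 11508 genes of at least 5 CPM on average, the median absolute difference on log2(CPM + 0.5) was 0.08 between libraries 1 and 2, 0.09 between 1 and 3 and 0.10 between 2 and 3, with Pearson correlations of 0.994, 0.992 and 0.991 across these genes, which are not independent replicates. More than 1.5-fold differences were seen for 103, 108 and 188 genes. The median CV was 5.41%, and 82.0% of genes had a CV below 10%. Counting reads alone would give a median CV of 2.31%, and the median chi-square of read numbers between libraries was 8.28, 7.64 and 9.82 times the value for counting error alone. Among the least variable genes of at least 100 CPM were *Hdgf* (CV 0.0659%), *Rad21*, *Gm5940*, *Hnrnpm*, *Rnf10*, *Ppp2r5d*, *Vcp*, *Commd3* and *Rpl7a* (0.325%). *Hdgf*, a chromatin-associated growth factor, had 182, 182 and 182 CPM. *Gm5940* shares 95.1% of its 50-base stretches with other genes and is uncertain. In all, 1507 of the 11508 genes had a CV below that of counting error.

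**Figure D3:**
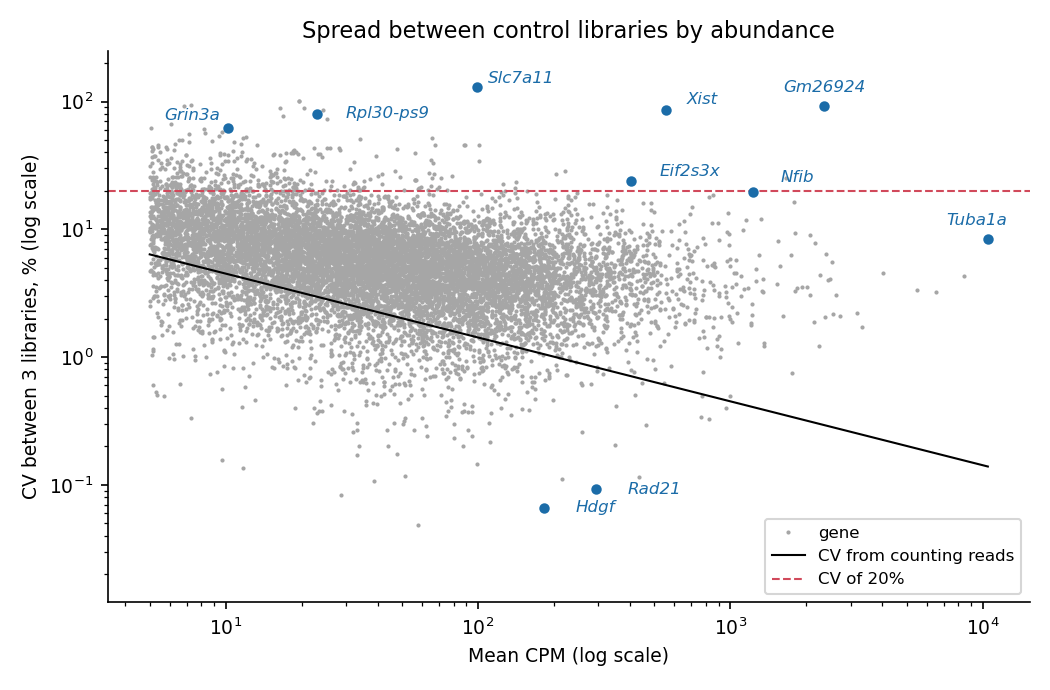
CV between the 3 control libraries against mean CPM for the 11508 genes of at least 5 CPM, both axes logarithmic, with the CV that counting reads would give as a line and the 20% threshold dashed. Most genes lie below 10%, the spread narrows as abundance rises, and *Slc7a11*, *Xist* and *Gm26924* stand far above genes of like abundance.

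A CV above 20% was found for 353 of the 11508 genes, 3.07%. These variable genes were mostly of low abundance, with 266 of the 3527 genes between 5 and 20 CPM and only 11 of the 2535 genes of at least 100 CPM. The 11 were *Gm26924*, *Xist*, *Gm10163*, *5830417I10Rik*, *Sox11*, *Malat1*, *Lars2*, *Eif2s3x*, *Dner*, *St7* and *Kdm5c*, of which *Gm10163* and *5830417I10Rik* share more than 50% of their sequence with other genes. Genes that share sequence with another annotated gene, overlapping models included, were common among the variable genes. Of the 341 variable genes with a value, 67 (19.6%) shared more than 50% of their 50-base stretches with another gene. This held for 619 of 11357 genes (5.45%) of at least 5 CPM. Library 3 was farthest from the mean of the other 2 on log2(CPM + 0.5) for 167 variable genes, 115 of them high there, library 2 for 126, with 53 high and 73 low, and library 1 for 60, with 29 high and 31 low. By chromosome, variable genes made up 6.34% on the X (27 of 426) and 5.59% on chromosome 14 (24 of 429). The count depended on the minimum, as a minimum of 20 CPM left 87. Without library 1 it was 534, but there the CV was taken over only 2 libraries. A CV over 2 values is less certain, so this count is not strictly comparable.

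The largest CV, 131%, was that of *Slc7a11*, the cystine-glutamate exchanger. It had 248, 21.1 and 27.4 CPM, high in library 1 only. Its gene lies at chr3:49892526-50443614 on the minus strand, and 0.618% of its 50-base stretches are shared. Library 1 also stood apart for *Rpl3-ps2* with 33.3, 8.11 and 7.65 CPM, *Gm13157* with 10.7, 4.02 and 3.49 CPM and *H2-D1*, a class I histocompatibility gene, with 13.7, 5.600 and 5.59 CPM. All 3 were high there. In the other direction *Pop4*, a subunit of RNase P, had 14.3, 40.97 and 47.00 CPM and the pseudogene *BC002163* had 2.62, 9.56 and 12.4 CPM, low in library 1. *Rpl3-ps2*, *Gm13157* and *BC002163* share most of their sequence with other genes and are uncertain.

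The pseudogenes *Rpl30-ps9*, *Rpl30-ps10* and *Gm12191*, copies of the mRNA of ribosomal protein L30, were low in library 1 together. *Rpl30-ps9* had 1.83, 32.02 and 35.5 CPM, *Rpl30-ps10* 1.93, 23.6 and 25.3 CPM and *Gm12191* 3.83, 34.7 and 37.4 CPM, while *Rpl30* itself had 413, 375 and 366 CPM and was highest in library 1. The sharing of 50-base stretches, 97.6%, 96.6% and 100%, leaves their values uncertain.

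Library 2 stood apart for structural RNAs. *Gm26924*, which had no match in the annotation used here, had 1199, 4876 and 995 CPM, and its high mean rank rests on library 2. *Rn7sk*, the 7SK RNA that holds back transcription elongation, had 11.1, 41.6 and 8.83 CPM, the first of the rows named Metazoa_SRP, the RNA of the signal recognition particle, had 8.13, 42.5 and 7.95 CPM, and *Gm24447* and *Gm26315* had 3.55, 15.2 and 3.14 CPM and 3.45, 14.2 and 2.91 CPM. All were high in library 2. *Rn7sk*, *Gm24447* and *Gm26315* share 68.1%, 66.4% and 68.4% of their 50-base stretches with other genes and are uncertain, and for *Gm26924* and the Metazoa_SRP rows, which were not matched, sharing was not computed. In a list of structural RNAs chosen after the values were seen, all 7 rows of at least 5 CPM were highest in library 2, including *mt-Rnr1*, *mt-Rnr2* and *Malat1*, against 34.1% of all genes, as deposited and under both other scalings. GC correction could act on only 4 of the 7 (*Rn7sk*, *mt-Rnr1*, *mt-Rnr2* and *Malat1*), which stayed highest there. The 2 Metazoa_SRP rows were equal in libraries 1 and 3 and nearly so in library 2, so that they may hold the same reads. *Neat1*, at 1.48, 0.952 and 1.45 CPM, was lowest in library 2. With Metazoa_SRP counted once, the list summed to 1823, 5727 and 1541 CPM, most of it *Gm26924*, and without *Gm26924* to 624, 851 and 546 CPM. *Lars2*, the mitochondrial leucyl-tRNA synthetase, was also high there, with 1466, 2129.7 and 1369 CPM. Low in library 2 were *Xlr3b* with 16.2, 4.83 and 14.02 CPM, the thyroid hormone binding protein gene *Crym* with 13.7, 4.81 and 13.9 CPM, *Cbln2* with 9.94, 4.11 and 14.2 CPM and *Tcerg1l* with 8.15, 2.91 and 9.13 CPM. *Xlr3b* belongs to a family of near-identical copies and is uncertain.

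Library 3 had little *Xist*, the RNA that coats the inactive X chromosome of female cells. *Xist* had 812, 850.2 and 0.803 CPM, at chrX:103460366-103483254 on the minus strand, and its neighbour *Tsx* had 33.5, 39.00 and 0.451 CPM. Both were high in libraries 1 and 2 and low in library 3, where they still exceeded the 0.0752 CPM that 3 reads give. *Tsix* and the Y-linked genes *Ddx3y*, *Uty*, *Kdm5d* and *Eif2s3y* were not listed. The pseudogenes *Gm21857* and *Gm20775*, matched to the Y chromosome, had 14.6, 19.5 and 11.4 CPM and 9.44, 9.28 and 9.05 CPM, and *Gm21857* was variable, but they share 95.8% and 87.1% of their 50-base stretches with other genes and are uncertain. Among 8 listed genes known to escape X inactivation, a list chosen after the values were seen and revised after that, 7 were lowest in library 3, under each treatment tried, against 36.7% of all genes. *Eif2s3x* had 462, 459 and 294 CPM, *Kdm5c* 148, 165 and 108 CPM and *Kdm6a* 82.5, 75.2 and 53.4 CPM, and 6 of the 8 had a CV above 20%, against 3.07% of all genes, while *Shroom4*, with 5.95, 7.36 and 7.65 CPM, was highest in library 3. Among the genes with the largest CVs, 4 others stood apart as high in library 3. *Grin3a*, an NMDA receptor subunit, had 8.48, 4.89 and 17.3 CPM, and the guidance ligand *Slit3* had 3.198, 3.301 and 8.65 CPM. The secreted protein gene *Fam19a1* had 7.996, 5.07 and 15.9 CPM, and the protocadherin *Pcdh11x* had 5.16, 4.55 and 11.7 CPM.

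**Figure D4:**
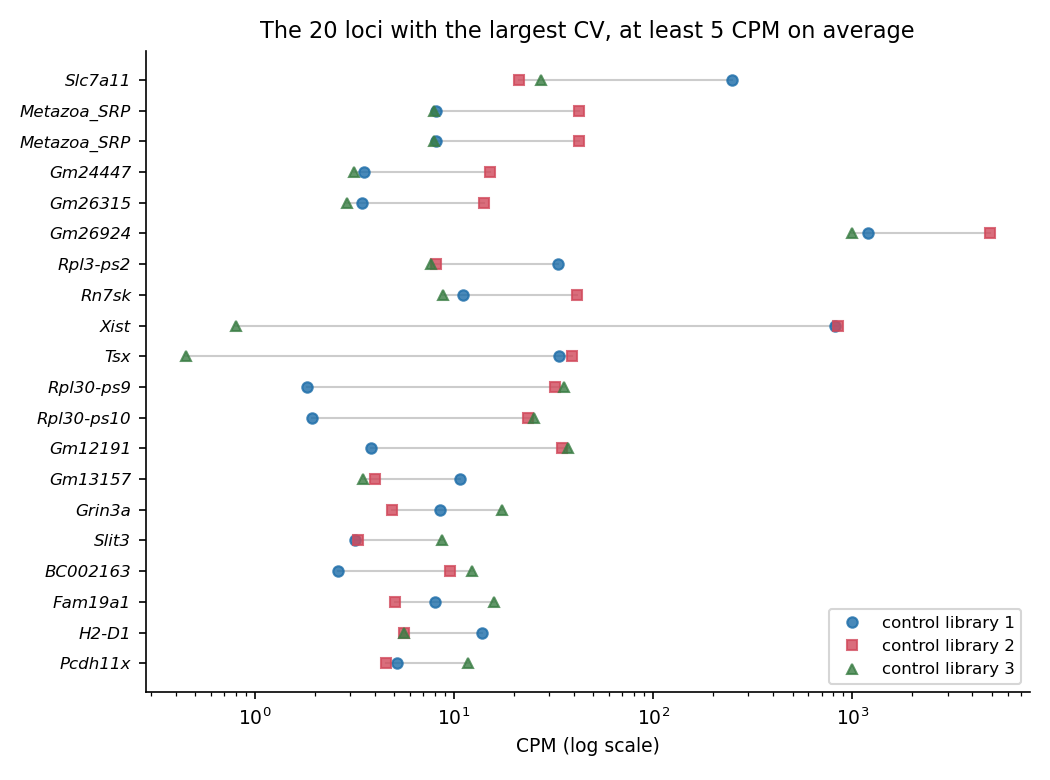
CPM in control libraries 1 to 3, on a logarithmic axis, for the 20 loci with the largest CV among those of at least 5 CPM on average. Library 1 is alone at the right for *Slc7a11* and at the left for the Rpl30 copies, library 2 is alone at the right for the structural RNAs, and library 3 is alone at the left for *Xist* and *Tsx*.

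In several gene groups small differences ran the same way in most members. Of the 13 cell cycle genes, 12 were highest in library 2, against 34.1% of all genes, and 13 were lowest in library 3, against 36.7%, with the same counts under each treatment tried. The sums were 1385, 1491 and 1259 CPM, a CV of 8.43%. Of the 14 radial glial genes of at least 5 CPM, 12 were highest in library 2 and 9 lowest in library 3, or 10 after GC correction. *Notch1*, the receptor that keeps progenitors undifferentiated, varied most of these, with 92.04, 125 and 91.1 CPM. For the intermediate progenitor list 5 of 7 were highest in library 2 and 6 lowest in library 3, for deep layer neurons 5 and 7 of 8, and for upper layer neurons 6 and 7 of 9. GC correction gave 4 in place of 5 for intermediate progenitors, and 7 members highest in library 2 for each of the deep and upper layer lists. Layer genes not lowest in library 3 included *Etv1*, highest there with 22.1, 23.5 and 31.8 CPM, and *Mef2c*, lowest in library 2 with 388, 346 and 374 CPM.

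Apart from the tubulins, the families that follow were chosen after the values were seen. Of 11 SOX transcription factors of at least 5 CPM, 10 were highest in library 2, against 34.1% of all genes. Lowest in library 3 were 10, against 36.7%. *Sox4* had 1338, 1465 and 1151 CPM and *Sox11*, a factor of young neurons, 216, 285 and 159 CPM. All 4 NFI factors were lowest in library 3, against 36.7% of all genes, and 3 were highest in library 2, against 34.1%. *Nfib* had 1220.2, 1472 and 994 CPM. The NFI counts were the same under each treatment tried, and the SOX counts became 11 and 11 after GC correction. Glutamate and GABA receptor subunits went the other way, with 17 of 24 highest in library 3, against 34.7% of all genes, and 16 lowest in library 2, against 33.3%. Both counts were 19 after GC correction, and the second was 17 with equal column sums. *Gria2*, the most abundant with 559, 481 and 526 CPM, was highest in library 1 and so an exception, *Grin1* had 28.8, 29.6 and 41.5 CPM and *Grin2b* 28.8, 40.99 and 27.1 CPM, the last being highest in library 2. Of 14 tubulin genes of at least 5 CPM, 9 were highest in library 3, against 34.7% of all genes, and 9 lowest in library 1, against 29.9%. The latter count was 10 with equal column sums and 8 after GC correction. Among all 15 listed tubulin genes, *Tuba4a* was the most variable with 5.39, 5.57 and 8.75 CPM. *Tubb6* was the lowest of the 15 with 4.02 CPM on average. The tubulin sums were 24319, 24548 and 26598 CPM. Kinesins were highest in library 2 in 18 of 30 cases, against 34.1% of all genes, and lowest in library 3 in 18, against 36.7%, counts that ran from 18 to 20 and from 16 to 19 over the treatments. Of 18 hnRNP genes, 12 were highest in library 1 as deposited, against 31.1% of all genes, 14 with equal column sums, against 30.5%, and 6 after GC correction, against 28.0%. For the semaphorins and plexins, 15 of 25 were lowest in library 1 as deposited, against 29.9% of all genes, 14 with equal column sums, against 30.2%, and 9 after GC correction, against 28.0%. Among 59 translation factors, 21 were highest in library 1, 14 in library 2 and 24 in library 3, against 31.1%, 34.1% and 34.7% of all genes. After GC correction these counts were 17, 16 and 26, against 28.0%, 35.1% and 36.9%. Among 39 potassium channel genes 16 were highest in library 2 and 12 in library 3 as deposited, 14 and 15 with equal column sums and 17 and 12 after GC correction, against 34.1% and 34.7% of all genes as deposited.

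**Figure D5:**
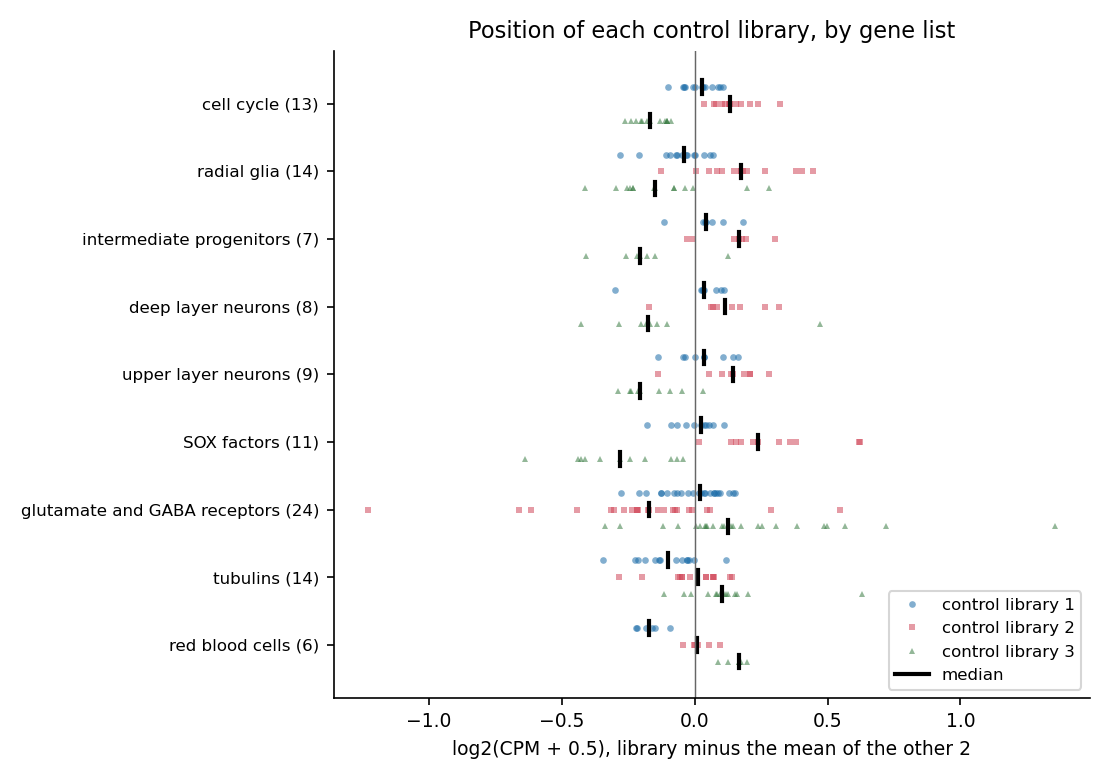
Difference on log2(CPM + 0.5) between each control library and the mean of the other 2 for members of at least 5 CPM of 9 gene lists (number in brackets), with the median of each list and library as a bar. Library 2 lies to the right and library 3 to the left for the cell cycle, progenitor, layer and SOX lists, the reverse holds for the receptors, and red blood cell genes are lowest in library 1 and highest in library 3.

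Technical values that moved with the libraries are given beside these orders. Across the genes of at least 5 CPM with a value, the position of a library against the other 2 had Spearman correlations with GC content of -0.43 in library 1, 0.17 in library 2 and 0.19 in library 3 (n = 11357), and with exon length of 0.04, 0.13 and -0.17 (n = 11363). Genes are not independent, and these are descriptions. Equal column sums moved the share of genes highest in library 3 from 34.7% to 39.0% and the share lowest in library 2 from 33.3% to 37.1%. The part of exon length, of the structural RNAs in library 2 and of the *Xist* level in library 3 was not tested.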

How the data were processed

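Gene values were used as CPM, which the authors had made and deposited in 1 table for all 9 libraries. The submitters' processing notes name FastQC, TopHat, TopHat2, Bowtie, Cufflinks 2.1.1 and edgeR 2.12, and the builds GRCm38 and GRCh37, with no role for either. Which gene models were counted, how, and whether strand was read are not given in the sources used here. All listed genes were ranked by mean CPM over the 3 control libraries, and no column was left unassigned (0 unused). The sample s.d. and CV were taken over 3 libraries. Read numbers were recovered from the smallest step, with 100% of values whole within 0.01. The value of 3 reads was 0.0578, 0.0493 and 0.0752 CPM, which covers counting error only. Symbols were matched to GENCODE M21 (GRCm38) for 14406 of 14670 genes, 633 by an older symbol. Sharing was counted over 50-base stretches of transcripts, against any other annotated gene, including models that overlap at the same locus. No test between groups was made.

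Named genes were the 25 highest by CPM, the 10 highest per kb, of each list the highest, lowest, most variable and first 2 members, the 20 largest and 10 smallest CVs, and the 5 genes highest and the 5 lowest in each library. Others were named after their values were seen. Some items that this rule names are not reported here. Members and lists were chosen with earlier results of these data known. The 10 added lists (genes that escape X inactivation, structural RNAs, receptors, potassium channels, hnRNP proteins, translation factors, SOX factors, kinesins, semaphorins and plexins, NFI factors) were chosen after the values were seen, and 2 of them were revised after that: *Utp14a* was dropped from and *Mid1*, *Car5b* and *Shroom4* added to the X escape list, and *Grina*, which is not a receptor subunit, was dropped from the receptors. Alternatives were other scalings, other minimum levels, CPM per kb and leaving out each library. For the variable genes they also were the s.d. of log2 values, counting variance taken off and a pseudocount of 1. Further ones were protein-coding genes only and genes with at most 50% of 50-base stretches shared, which, like GC correction, were not planned. Calculations used Python 3.11.15, numpy 2.4.6, pandas 2.3.3, scipy 1.17.1 and matplotlib 3.10.9, and the spread was tested on simulated data.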

Additional observations from a re-analysis of the deposited data

How the results depend on the processing

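Apart from list levels, 77 of 94 alternative values stayed within the spread between libraries or within 1.5 times the count reported, and 17 did not. The mean *Xist* level was 554 CPM, and 831 CPM without control replicate 3. On CPM per kb the 100 most abundant genes held 27.6% of the sum and 13 of the 25 leading genes were kept, which follows from dividing by length. The median over listed genes was 26.1 CPM among genes of at least 1 CPM and 38.0 CPM among those of at least 5 CPM, since fewer low genes enter. Variable genes numbered 1254 with a minimum of 1 CPM, 87 with a minimum of 20 CPM and 1531 with none. With minimums of 1 and 20 CPM, library 1 was farthest for 278 and 18 of them, library 2 for 443 and 23, and library 3 for 533 and 46. Leaving out 1 library gave 283 to 534 variable genes, with 534 without control replicate 1. These counts rest on a CV over 2 libraries and are not strictly comparable with the count over 3. After GC correction, which was added after seeing the data, 6 hnRNP genes were highest in library 1, 9 semaphorins and plexins were lowest in library 1 and 2 planar polarity genes were lowest in library 1; the cause was not tested. No paired analysis was possible because only 1 group was described. Depth limits values near the level of 3 reads, and 3 libraries limit any estimate of spread.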
